A study of Rattus norvegicus with 12 samples.

Results

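The undiseased rat kidney was described from 6 libraries of a series of 12, those of the 3 control rats and the 3 sham rats. These samples were chosen by their labels, not by a measured value, and the genes described are the 19066 symbols that had a single entry in each of both deposited tables, of 27723 symbols found in either. All rats were male Sprague-Dawley rats labelled as wild type (WT), 8 weeks old at purchase and given 7 days to acclimatize. Control rats received saline by gavage for 3 weeks, beside rats that received adenine, and sham rats were opened without tying the ureter and sampled 2 weeks later, beside rats with unilateral ureteral obstruction (UUO), in which the left ureter was ligated. Each library came from the renal tissue of a different animal, and neither the part of the kidney that was cut nor the time of day of collection was given in the sources used here. The deposited expression values were FPKM, in which fragment numbers are divided by the length of the transcript and by the mapped total. Control and adenine rats shared 1 table, and sham and UUO rats the other. Because both tables were normalized separately, control and sham values were set side by side and no test was run between them.

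The kidney filters blood in glomeruli, whose podocytes hold the filtration barrier, and recovers most of the filtrate in the proximal tubule, a segment rich in mitochondria, transporters and enzymes. The thick ascending limb takes up salt without water, the distal convoluted and connecting tubules adjust salt, calcium and magnesium, and the principal and intercalated cells of the collecting duct handle water, sodium and acid. Glomeruli, early proximal tubules and distal convoluted tubules lie in the cortex, late proximal tubules in the outer medulla and medullary rays, and thin limbs and osmolyte-accumulating cells deepest in the medulla. These segments differ in the genes they express, so a tissue library carries the sum of the segments it holds.

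In the 6 libraries the defining genes of kidney epithelium were abundant, while genes of adipose tissue were also present. Of 112 genes in 11 nephron lists, 107 had a single entry in both tables and 104 passed the filter of at least 0.5 FPKM in 3 of these 6 libraries, which 13231 genes passed. The Y-linked genes Kdm5d and Eif2s3y were expressed in all 6, at 3.07 to 4.50 and 11.7 to 30.2 FPKM, while Ddx3y, also Y-linked, was listed at 0 to 0.0938 FPKM. The summed levels of the 3 adrenal genes and of the 3 skeletal muscle genes reached at most 0.499 and 1.86 FPKM, and the 6 adipose genes summed to 161, 57.2 and 37.3 FPKM in control rats and 30.6, 36.7 and 13.1 FPKM in sham rats. Across genes, Pearson's r of log2(FPKM + 0.1) was 0.954 to 0.968 between control rats, 0.949 to 0.962 between sham rats, and 0.901 to 0.937 between a control and a sham rat. Control rat 2 stood apart from the other control rats in genes of the cortex and the medulla, control rat 1 in adipose genes, and control rat 3 and sham rat 1 each from its own group in clock genes, and the values of these genes are given rat by rat.

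The highest transcripts of the undiseased kidney came from the mitochondrial genome. Its 13 protein-coding genes, which encode subunits of the respiratory chain and of ATP synthase, held 27.7% to 32.2% of all FPKM in control rats and 28.4% to 33.2% in sham rats, against 12.9% to 14.9% in adenine rats and 8.82% to 10.5% in UUO rats. All 13 were among the 31 genes with at least 1000 FPKM in each of the 6 libraries. Mt-co1, which encodes a subunit of cytochrome c oxidase, was the highest gene, at 36605, 31389.8 and 29605 FPKM in control rats 1, 2 and 3 and 41359, 49884 and 47834 FPKM in sham rats 1, 2 and 3. The sham rats lay above the control rats for this gene with no overlap. Mt-atp6, a subunit of ATP synthase, was at 30733, 29856 and 30913 FPKM in control rats and 6784, 5720.5 and 7272 FPKM in sham rats, and Mt-atp8, whose reading frame overlaps that of Mt-atp6, at 17578, 13365 and 14113 FPKM and 25134, 19916 and 28675 FPKM. These neighbours therefore differed between the tables in opposite directions, and how fragments were divided between overlapping genes was not given, so both values are uncertain. Expression was concentrated in few genes: 103 to 128 entries made up 50% of the summed FPKM in control rats and 103 to 142 in sham rats, against 244 to 312 in adenine rats and 466 to 509 in UUO rats.

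Kap was the highest nuclear gene. It encodes kidney androgen-regulated protein of the proximal tubule and stood at 7696, 12706 and 8063 FPKM in control rats and 8562, 10198 and 9021 FPKM in sham rats, overlapping between the groups. Fth1, the heavy chain of the iron store ferritin, followed with means of 4027 ± 215 and 3957 ± 672 FPKM in the groups (± standard deviation, SD, n = 3 each). Cyp4a2, a fatty acid hydroxylase, was at 2939 ± 485 and 3561 ± 484 FPKM, and Fxyd2, the regulatory subunit of the sodium pump, at 3159.7 ± 224 and 3114 ± 353 FPKM. The peroxisomal oxidase Hao2, the glutathione-synthesis subunit Gclc and the transporter subunits Slc3a1 and Slc7a13, which carry cystine and acidic amino acids into tubule cells, were also among the 20 highest nuclear genes. Umod, which encodes the uromodulin secreted by the thick ascending limb, was the highest gene of the segments beyond the proximal tubule that the lists hold, at 1521, 1207 and 1588 FPKM in control rats and 2095, 2489.9 and 1888 FPKM in sham rats. All sham rats lay above all control rats for Umod.

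The spread between rats was uneven among these abundant genes. Gpx3, the secreted glutathione peroxidase that the proximal tubule makes, was at 3114, 1288 and 1270.3 FPKM in control rats and 3483, 3884 and 5331 FPKM in sham rats. Control rat 1 lay close to the sham rats and the other control rats far below. Tff3, a secreted trefoil peptide, was at 1710.2, 4722 and 2519.8 FPKM in control and 2151, 1612 and 1354 FPKM in sham rats, highest in control rat 2. By contrast, Gclc varied over 1716, 1744 and 1801 FPKM in control rats, and Atp5f1b, the catalytic subunit of ATP synthase, over 1612, 1599 and 1642 FPKM. Both groups held largely the same abundant genes: 17 of the 20 highest genes (85%), 84 of the 100 highest (84%) and 439 of the 500 highest (87.8%) of one group were among those of the other.

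**Figure D1:**
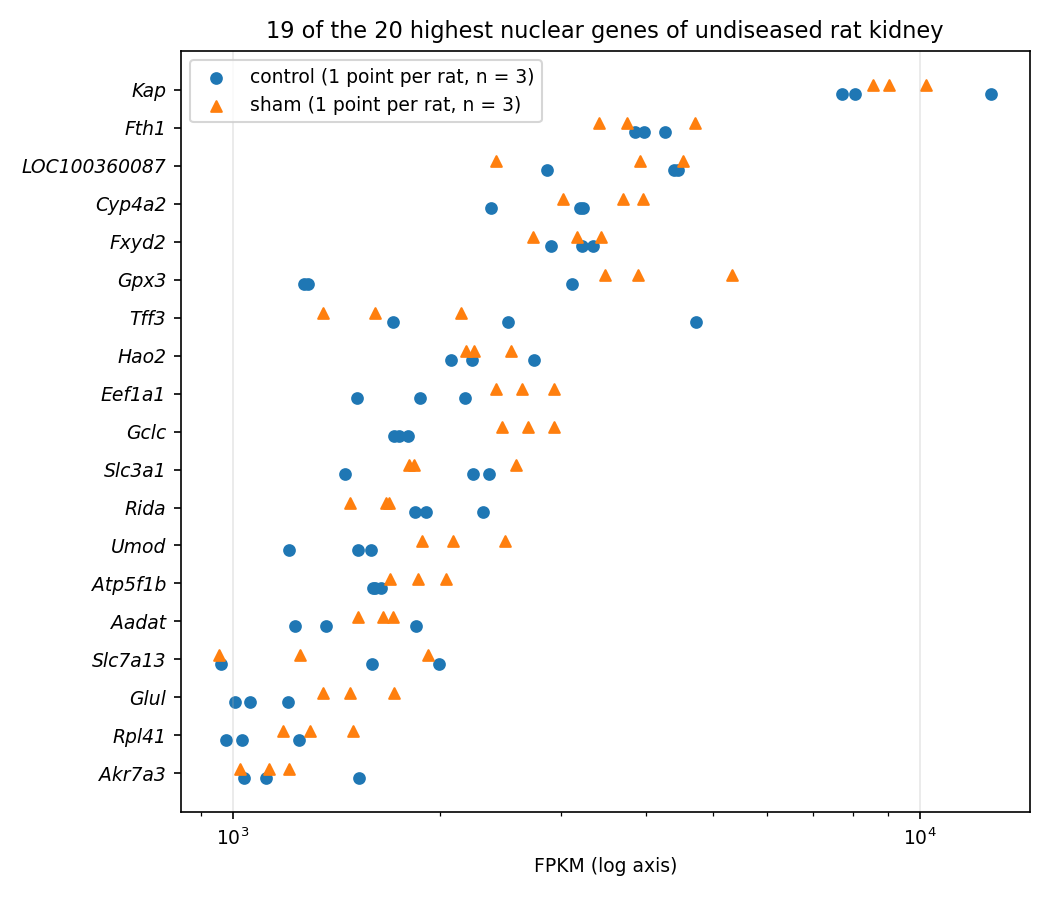
FPKM of 19 of the 20 highest nuclear genes, ordered by the mean of the control and sham means, on a log axis; each circle is 1 control rat and each triangle 1 sham rat (n = 3 each). Kap lies above all others, Gpx3 and Tff3 are spread most widely between control rats, and for Umod and Gclc the sham rats lie to the right of the control rats.

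Glomerular genes were present in every library but at very different levels in control rats. Nphs1, which encodes nephrin of the podocyte slit diaphragm, was at 13.2, 2.38 and 16.4 FPKM in control and 8.22, 9.83 and 19.4 FPKM in sham rats, and Podxl, the podocyte sialoprotein podocalyxin, at 34.8, 13.8 and 40.1 FPKM in control and 31.8, 33.3 and 49.8 FPKM in sham rats. All 10 podocyte genes were lowest in control rat 2, which was the lowest control rat in 38.0% of all 13231 genes. The summed FPKM of the podocyte genes was 197, 48.0 and 255 in control rats and 167, 206 and 275 in sham rats. Fewer cells of a type and less RNA per cell cannot be told apart in such tissue. Pdgfrb, the platelet-derived growth factor receptor of mesangial cells and pericytes, was at 9.89, 7.22 and 11.2 FPKM in control rats and 3.71, 3.04 and 3.92 FPKM in sham rats. Every sham rat lay below every control rat for Pdgfrb.

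Proximal tubule genes ranged from 0.0254 FPKM, for Slc5a12 in control rat 2, to the 12706 FPKM of Kap in the same rat. Slc34a1, the main phosphate transporter of the brush border, was at 1034, 478 and 659 FPKM in control rats and 566, 823 and 808 FPKM in sham rats. The organic anion transporters Slc22a6 and Slc22a8 were at 315, 124 and 130.2 and 156, 16.1 and 38.2 FPKM in control rats. In sham rats they were at 150.2, 337 and 287 and 103, 184 and 199.6 FPKM. Of the 12 transporters placed in the early and middle segment, 11 were highest in control rat 1 and 11 lowest in control rat 2. Over all 13231 genes these shares were 37.2% and 38.0%. Slc5a2, the glucose transporter SGLT2, was at 13.7, 0.232 and 2.47 FPKM in control rats and 19.6, 3.06 and 29.9 FPKM in sham rats, so that its highest and lowest rats were far apart in both groups. Slc4a4, the basolateral bicarbonate transporter, was at 2.11, 0.135 and 0.493 FPKM in control and 7.25, 2.80 and 7.85 FPKM in sham rats and did not overlap between the groups. Slc2a2, the basolateral glucose transporter, was at 8.33, 4.66 and 5.82 FPKM in control and 10.2, 10.7 and 17.5 FPKM in sham rats, also with no overlap.

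Late proximal transporters followed another order of rats. Slc7a13 was at 963, 1997 and 1596 FPKM in control rats and 1922, 956 and 1253 FPKM in sham rats, lowest in control rat 1 and in sham rat 2. Slc22a13, a transporter of organic anions such as urate, was at 0.338, 5.28 and 21.9 FPKM in control rats and 34.0, 0.385 and 0.645 FPKM in sham rats. It was high in control rat 3 and sham rat 1 and under 1 FPKM in 3 of the 6 rats. Across the brush border and endocytosis genes, Lrp2, the endocytic receptor megalin, was at 129, 99.9 and 105 FPKM in control and 168, 164 and 175 FPKM in sham rats, with all sham rats above, while Amn, which carries the receptor cubilin to the surface, was at 56.0, 64.5 and 77 FPKM in control and 39.0, 28.3 and 25.4 FPKM in sham rats, with all sham rats below. Among the enzymes, Pck1 of glucose synthesis was at 914, 181 and 1065 FPKM in control rats and 1459, 1184 and 839 FPKM in sham rats, and Gatm of creatine synthesis at 604, 112 and 188 FPKM in control and 338, 666 and 617 FPKM in sham rats. Both were lowest in control rat 2.

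The 11 thick ascending limb genes had a median SD between rats of 0.39 in the control and 0.21 in the sham group, on the log2(FPKM + 0.1) scale. Slc12a1, the sodium-potassium-chloride transporter NKCC2, was at 135, 229 and 159.7 FPKM in control rats and 228, 167 and 155 FPKM in sham rats, and the potassium channel Kcnj1 at 65.5, 61.1 and 67.4 FPKM in control and 191, 158 and 126 FPKM in sham rats. Kcnj1 was higher in all sham rats. Egf, the epidermal growth factor precursor made in the distal nephron, was at 114, 21.4 and 87.2 FPKM in control and 145, 193 and 151 FPKM in sham rats, and Casr, the calcium-sensing receptor, at 3.92, 0.662 and 3.64 FPKM in control and 8.40, 7.91 and 10.2 FPKM in sham rats. Both were lowest in control rat 2 and did not overlap between the groups.

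Genes of the distal convoluted and connecting tubule spread widely between control rats, with a median SD of 1.09, against 0.48 in sham rats. Slc12a3, the thiazide-sensitive sodium-chloride transporter NCC, was at 197, 12.9 and 164 FPKM in control rats and 68.8, 139 and 164 FPKM in sham rats. Calb1, the calcium-binding protein calbindin, was at 407, 27.5 and 189.6 FPKM in control and 104, 340.1 and 389 FPKM in sham rats. Control rat 2 was lowest for 7 of the 8 genes of this list that passed the filter and sham rat 1 also for 7 of 8. Over all 13231 genes they were lowest in 38.0% and 37.0%. The summed FPKM of the list was 668, 78.3 and 419.7 in control rats and 216, 527 and 616 in sham rats. Pvalb, a calcium-binding protein used as a distal convoluted tubule marker, was listed at 0 or 0.0001 in 5 of the 6 libraries.

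In the collecting duct, median SDs in the control group were 0.63 for principal cell genes and 0.80 for intercalated cell genes, against 0.41 and 0.25 in the sham group. Aqp2, the vasopressin-regulated water channel, was at 58.0, 68.5 and 80.1 FPKM in control rats and 48.1, 63.9 and 53.6 FPKM in sham rats, with the groups overlapping, while the vasopressin receptor Avpr2 was at 17.0, 17.9 and 19.6 FPKM in control and 12.3, 13.3 and 9.12 FPKM in sham rats, with all sham rats below. Slc26a4, the chloride-bicarbonate exchanger pendrin of type B intercalated cells, was at 55.4, 10 and 88.4 FPKM in control rats and 46.2, 50.3 and 65.0 FPKM in sham rats. Slc4a1, the anion exchanger of type A cells, was at 79.6, 65.7 and 122 FPKM in control and 61.9, 50.6 and 52.3 FPKM in sham rats. Of the 12 intercalated cell genes, all 12 were highest in control rat 3 and 11 lowest in control rat 2, beside 28.6% and 38.0% of all 13231 genes.

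Genes of the inner medulla, thin limbs and osmolyte accumulation ran the other way. Cryab, a small heat shock protein abundant in the medulla, was at 103, 477 and 185 FPKM in control rats and 255, 151 and 156 FPKM in sham rats. Slc6a12, the betaine transporter, was at 0.356, 4.90 and 0.850 FPKM in control and 6.30, 3.24 and 0.548 FPKM in sham rats. Control rat 2 was highest in 6 of the 7 genes of this list and control rat 1 lowest in 6, beside 34.2% and 30.1% of all 13231 genes. In the sham group rat 1 was highest in 6 and rat 3 lowest in 6, beside 31.9% and 30.4%. Spp1, the secreted phosphoprotein osteopontin, was also highest in control rat 2, at 49.5, 552 and 56.2 FPKM in control rats and 378, 356 and 147 FPKM in sham rats. The 6 urothelial genes summed to 0.740, 8.17 and 1.46 FPKM in control rats and 2.85, 0.675 and 0.935 FPKM in sham rats. These low sums were highest in control rat 2 and sham rat 1, as were most medullary genes, while the order of sham rats 2 and 3 differed. Only 1 of the 6 passed the filter, and their part in the result was not tested.

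**Figure D2:**
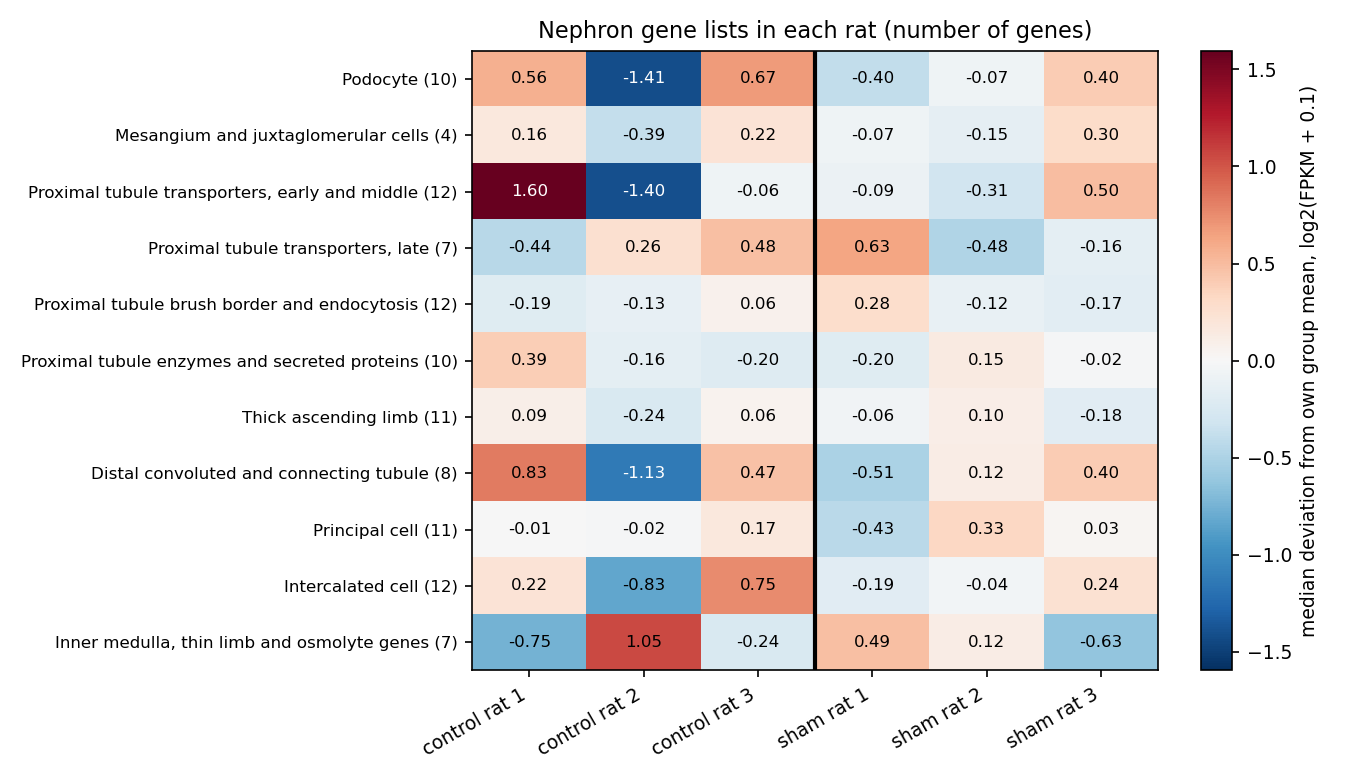
Median deviation of each nephron list in each rat from the mean of its own group, on the log2(FPKM + 0.1) scale, with the number of genes that passed the filter in parentheses; red is above and blue below the group mean. Control rat 2 is at -1.41 for podocytes, -1.40 for early and middle proximal transporters and -1.13 for distal tubules, and at 1.05 for the inner medulla, control rat 1 is at 1.60 for early and middle proximal transporters, and the sham rats stay between -0.63 and 0.63.

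Genes of cells other than epithelium were found in every library. The 10 endothelial genes summed to 162 to 191 FPKM in control rats and 178 to 199 FPKM in sham rats, and the 9 genes of stroma and smooth muscle to 111 to 159 and 112 to 173 FPKM. The 2 red blood cell genes, at 232 to 692 and 283 to 640 FPKM in sum, and the 11 leukocyte genes, at 160 to 230 and 187 to 312 FPKM, exceeded the podocyte sum in some rats, control rat 2 among them. Among the leukocyte genes, Lyz2, the lysozyme of myeloid cells, was at 210.4, 171 and 145 FPKM in control rats and 262, 291 and 171 FPKM in sham rats, Ptprc, which encodes the leukocyte antigen CD45, at 3.15, 2.70 and 2.55 FPKM in control and 2.24, 1.24 and 2.30 FPKM in sham rats, and the B cell gene Ms4a1 stayed at or under 0.0918 FPKM in every rat. Havcr1, the tubular injury gene that encodes KIM-1, was at 0.256, 1.34 and 0.697 FPKM in control rats and 1.29, 0.557 and 1.12 FPKM in sham rats, against 71.5 ± 38.6 FPKM in adenine rats and 118 ± 32.0 FPKM in UUO rats. Ucp1, the uncoupling protein of brown fat, was at 20.6 FPKM in control rat 1 and listed at 0 or 0.0001 in the other 5 rats. Control rat 1 was also highest for Plin1, the protein that coats fat droplets, at 10.9, 0.144 and 1.35 FPKM in control rats and 0.236, 0.0316 and 0.0001 FPKM in sham rats, and for the fatty acid carrier Fabp4, at 108, 48.6 and 22.6 FPKM in control and 20.1, 20.8 and 3.66 FPKM in sham rats. Other genes of the adipose list set it less apart. Adipoq was at 15.5, 8.36 and 8.74 FPKM in control and 9.59, 15.6 and 9.46 FPKM in sham rats, and Cfd at 5.08, 0.0410 and 4.44 FPKM in control rats.

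The median SD between rats over the 13231 genes was 0.22 for control and 0.19 for sham rats on the log2(FPKM + 0.1) scale, equal to median coefficients of variation of 15.6% and 13.5%. Low genes varied more: the median SD was 0.32 and 0.28 for genes with a mean under 5 FPKM, and 0.18 and 0.14 for genes at 50 FPKM or more. An SD of at least 1 was found in 514 genes of the control group (3.88%) and 443 of the sham group (3.35%). Nephron genes exceeded this in the control group, where their median SD was 0.68 and 33 of 104 had an SD of at least 1. Without control rat 2 the 33 genes became 12, the median SD of the nephron genes was 0.33, and over all genes 346 (2.62%) had an SD of at least 1. The median SD over all genes also fell, to 0.16, and was 0.157 to 0.198 whichever control rat was left out. How much of the fall in nephron genes is particular to control rat 2 was not tested. In the sham group the median SD of the nephron genes was 0.32 and 7 of 104 had an SD of at least 1, namely Slc5a2, Slc5a12, Slc34a3, Slc22a13, Ace, Calb1 and Slc6a12. The 9 reference genes had a median SD of 0.12 in control rats and 0.14 in sham rats, below that of the nephron genes and of all genes. In sham rats this was no lower than the 0.14 of genes at 50 FPKM or more.

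The genes that varied most differed in kind between the groups. In control rats the 10 with the largest SD among genes at 5 FPKM or more were Cldn5, Ucp1, LOC103690108, Cyp2c24, Serpinb12, Klk1c3, Fam151a, Slc22a13, Fst and Esr1. Esr1, the estrogen receptor, was at 10.7, 0.270 and 10 FPKM in control rats and 9.67, 9.79 and 7.60 FPKM in sham rats, low in control rat 2 alone. In sham rats they were Ndufa1, AC117058, Selenbp1, LOC103690108, LOC100911405, AABR07008505, Hdac6, LOC100910528, Pnpla2 and LOC100910882, of which 8 were listed at 0.0001 in 1 or 2 rats while the rest lay at 22.2 FPKM or more. Ndufa1, a subunit of respiratory complex I, was at 71.9, 0.0001 and 143 FPKM in sham rats and 145, 126 and 103 FPKM in control rats. Such a step from a high level to the lowest value of the table in 1 rat is a property of the deposited values, and whether it is a failed estimate was not tested. Of the 100 most variable genes of each group, among 7351 at 5 FPKM or more, 38 were shared (38% of each list), and Spearman's rho of the SDs across these genes, which are not independent replicates, was 0.389.

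Circadian clock genes were among those that varied in both groups. The clock is a transcriptional loop in which Arntl (also Bmal1) with Clock or Npas2 activates the Per and Cry repressors, the nuclear receptors Nr1d1 and Nr1d2 and the output factors Dbp, Tef and Hlf through E-boxes, and Nr1d1 in turn holds back Arntl and Nfil3 through ROR response elements (ROREs), so that both arms peak at opposite times of day. Of the 16 clock genes, 14 were matched by symbol or synonym to RefSeq promoters of the GRCr8 assembly, 250 bases before to 50 after the start. The canonical E-box CACGTG was found in a window of 4 of them, Nr1d1, Tef, Ciart and Bhlhe41, the D-box TTANGTAA in Per2 alone and the RORE in Bmal1 alone, with both strands searched, against 6.42%, 2.24% and 2.73% of all 33469 promoter windows. The E-box reads the same on both strands, the D-box as searched does not, and a match is a description of letters, not of binding. The promoters printed here carry these motifs in capitals and are shown as examples of each motif among the clock genes whose values by rat follow: Bmal1 with 1 RORE (chr1:176766078-176766377, plus strand), Ciart with 3 E-boxes (chr2:186112197-186112496, minus strand), the second start of Nr1d1 with 1 E-box (chr10:84229405-84229704, minus strand) and Per2 with 1 D-box (chr9:99496944-99497243, minus strand).
Bmal1: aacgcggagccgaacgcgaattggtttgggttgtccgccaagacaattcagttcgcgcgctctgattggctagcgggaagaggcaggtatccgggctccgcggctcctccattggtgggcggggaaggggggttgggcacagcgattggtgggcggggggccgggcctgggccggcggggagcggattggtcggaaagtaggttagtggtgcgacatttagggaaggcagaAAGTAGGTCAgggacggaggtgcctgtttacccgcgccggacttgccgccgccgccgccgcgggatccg
Ciart: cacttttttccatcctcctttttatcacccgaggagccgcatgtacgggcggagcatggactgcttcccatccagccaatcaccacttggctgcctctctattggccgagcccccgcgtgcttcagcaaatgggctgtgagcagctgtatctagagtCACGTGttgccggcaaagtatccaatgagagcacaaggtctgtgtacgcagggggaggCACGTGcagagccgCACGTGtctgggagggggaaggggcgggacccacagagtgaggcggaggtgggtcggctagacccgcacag
Nr1d1: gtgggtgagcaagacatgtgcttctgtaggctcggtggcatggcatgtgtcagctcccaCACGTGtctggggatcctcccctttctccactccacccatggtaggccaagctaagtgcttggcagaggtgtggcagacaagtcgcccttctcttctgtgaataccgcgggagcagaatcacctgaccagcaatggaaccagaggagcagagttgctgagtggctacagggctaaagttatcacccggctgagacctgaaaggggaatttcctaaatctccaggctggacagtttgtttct
Per2: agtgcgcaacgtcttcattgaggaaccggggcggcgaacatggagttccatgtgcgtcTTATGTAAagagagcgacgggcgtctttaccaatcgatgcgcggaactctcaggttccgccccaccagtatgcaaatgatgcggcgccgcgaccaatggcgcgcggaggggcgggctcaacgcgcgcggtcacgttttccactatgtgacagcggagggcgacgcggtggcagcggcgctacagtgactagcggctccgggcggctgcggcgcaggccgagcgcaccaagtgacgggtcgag

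The windows of Dbp, Npas2 and Nfil3 held none of the motifs and are not printed. Arntl was at 1.20, 1.65 and 11.4 FPKM in control rats 1, 2 and 3 and 17.0, 1.24 and 1.85 FPKM in sham rats 1, 2 and 3. Npas2 was at 0.499, 0.267 and 3.33 FPKM in control and 3.55, 0.429 and 0.703 FPKM in sham rats, and Nfil3, a repressor of the D-box, at 1.84, 1.59 and 6.97 FPKM in control and 9.37, 1.26 and 1.48 FPKM in sham rats. Control rat 3 and sham rat 1 were the high rats of their groups for all of these genes. Dbp, an activator at the D-box, was at 116, 103 and 14.1 FPKM in control rats and 14.6, 146 and 133 FPKM in sham rats. Ciart, a repressor within the loop, was at 3.55, 2.87 and 0.292 FPKM in control and 0.114, 2.54 and 3.12 FPKM in sham rats, Per2 at 9.82, 9.28 and 3.01 FPKM in control and 2.84, 7.98 and 11.4 FPKM in sham rats, and Nr1d1 at 38.2, 34.3 and 15.0 FPKM in control and 14.5, 40.9 and 36.8 FPKM in sham rats. For these genes the same rats were the low ones. Control rat 3 was lowest in its group in 11 of the 16 clock genes and sham rat 1 also in 11 of 16. Over all 13231 genes they were lowest in 31.8% and 37.0%. Clock itself differed by group, at 5.11, 3.94 and 4.85 FPKM in control rats and 1.55, 0.591 and 0.998 FPKM in sham rats, with every sham rat below every control rat.

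**Figure D3:**
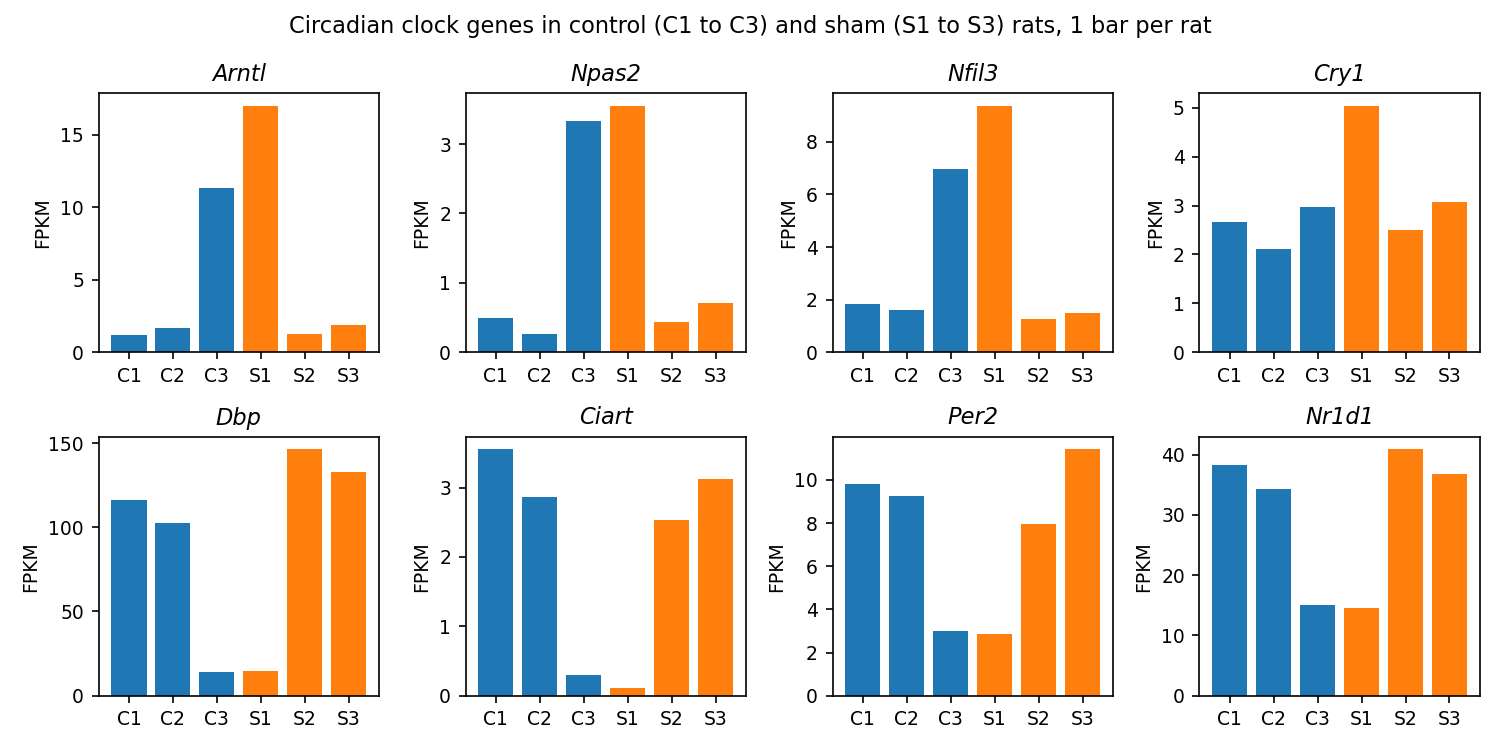
FPKM of 8 circadian clock genes, 1 bar per rat, with control rats C1 to C3 in blue and sham rats S1 to S3 in orange; each panel has its own axis from 0. In the upper row Arntl, Npas2 and Nfil3 are high in C3 and S1, with Cry1 less so, and in the lower row Dbp, Ciart, Per2 and Nr1d1 are low in the same 2 rats.

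Genes outside the clock list stepped in the same 2 rats too. The odd rat of a group was taken as the one farthest from the group's median. Of 217 genes with means of at least 5 FPKM whose highest rat exceeded the lowest by at least 2-fold in both groups, 73 (33.6%) had control rat 3 and sham rat 1 as the odd rats, and 72 of these deviated in the same direction. The 73 include clock genes such as Dbp and Nr1d1, in which the pattern was first seen. Control rat 1 with sham rat 1 was the next most frequent pair, with 47 genes (21.7%), of which 1 deviated in the same direction. Among the 38 genes most variable in both groups, 19 had control rat 3 and sham rat 1 as the odd rats, Dbp among them. Clock genes were not taken out, so these counts are not separate from the clock result. Ephx2, the soluble epoxide hydrolase, was at 81.8, 48.5 and 6.56 FPKM in control rats and 5.67, 118 and 58.2 FPKM in sham rats, Cyp2c24, a cytochrome P450, at 20.1, 10.4 and 0.205 FPKM in control and 0.10, 27.5 and 24.8 FPKM in sham rats, and Akr1b8, an aldo-keto reductase, at 72.9, 34.2 and 2.56 FPKM in control and 4.29, 92.9 and 66.9 FPKM in sham rats, low in those rats. Cldn5, a tight junction protein of endothelium, was at 0, 0 and 22.1 FPKM in control rats and 13.8, 0.0001 and 0.0001 FPKM in sham rats, listed at the lowest value of its table in the others. The immediate early gene Egr1 was at 4.44, 3.71 and 16.4 FPKM in control and 45.2, 4.07 and 4.27 FPKM in sham rats and Gpx2, an epithelial glutathione peroxidase, at 4.24, 5.46 and 23.4 FPKM in control and 29.4, 5.78 and 4.59 FPKM in sham rats, high in those rats.

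Some genes of the rat major histocompatibility complex, RT1, took part in this pattern with low values, and others did not. RT1-Ba, a class II chain, was at 75, 36.8 and 8.66 FPKM in control rats and 19.3, 92.6 and 44.8 FPKM in sham rats, its partner RT1-Bb at 16.5, 7.80 and 2.67 FPKM in control and 1.49, 18.1 and 9.42 FPKM in sham rats, and the class I gene RT1-CE10 at 29.4, 21.3 and 3.33 FPKM in control and 2.06, 22.8 and 12.1 FPKM in sham rats. All of these were lowest in control rat 3 and in sham rat 1 of their groups. RT1-N2 was at 2.70, 7.82 and 21.4 FPKM in control and 16.3, 1.11 and 8.65 FPKM in sham rats, highest in these rats. RT1-Da, another class II chain, was at 36.2, 30.9 and 22.1 FPKM in control and 39.9, 46.6 and 37.8 FPKM in sham rats. RT1 genes form a family of near-identical copies, so reads can be split between them and these values are uncertain.

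Control and sham kidneys were alike for most genes. The mean of log2(FPKM + 0.1) in sham rats exceeded that in control rats by a median of 0.16 over the 13231 genes, and 90.1% of genes lay within 2-fold. At least 2-fold apart with no overlap between the groups were 616 genes higher in sham rats (4.66%) and 437 lower (3.3%). Under median-of-ratios scaling, which took the median difference to 0.0093, this split became 410 higher and 608 lower. Without the fold requirement the groups did not overlap in 29.6% of genes with sham above and 12.9% with sham below. Of the 9 reference genes, 6 had every sham rat above every control rat and 0 the reverse. Across genes, Pearson's r of the group means was 0.943 and Spearman's rho 0.950.

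Of the 104 nephron genes, 8 were higher and 2 lower in sham rats by at least 2-fold with no overlap, beside 4.66% and 3.3% of all 13231 genes. The differences include the median shift of 0.16, and the split over all genes reversed under median-of-ratios scaling. No excess of 1 direction among nephron genes is read from these small counts. Higher in sham rats were Synpo, an actin-binding protein of podocyte foot processes, by 1.40 on the log2 scale, Slc4a4 by 3.03, Slc2a2 by 1.02, Gpx3 by 1.27, Kcnj1 by 1.27, Casr by 1.98, Egf by 1.44 and Slc6a6, the taurine transporter, by 1.39. Lower in sham rats were Pdgfrb, with a difference of -1.37, and Amn, with -1.10. The early proximal transporters Slc5a12, which carries lactate, and Slc7a7, which exports basic amino acids, differed in the mean by 3.21 and 2.54, but did not meet the rule. In Slc5a12, at 1.81, 0.0254 and 0.362 FPKM in control rats and 10.2, 0.743 and 9.96 FPKM in sham rats, the groups overlapped, as they did in Slc7a7, at 23.8, 1.87 and 3.28 FPKM in control and 26.4, 23.8 and 49.5 FPKM in sham rats. Aqp2, Hao2, Slc34a1, Slc12a1 and S100g had differences of -0.32, -0.01, 0.07, 0.08 and 0.10.

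**Figure D4:**
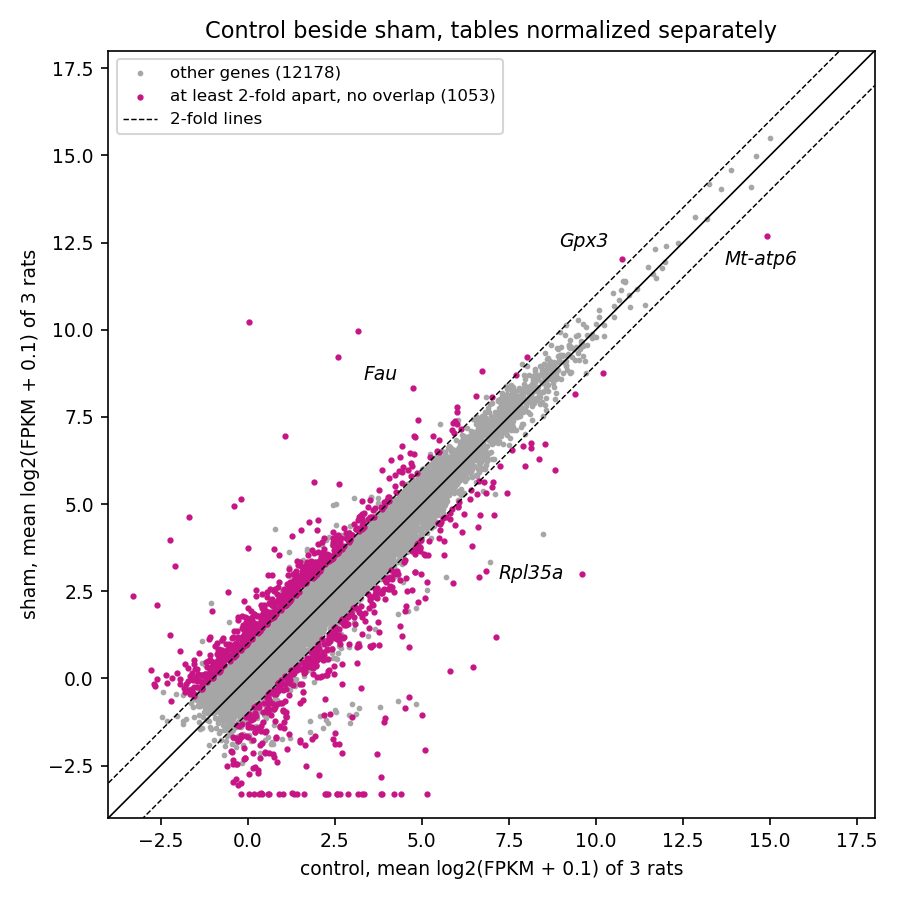
Mean log2(FPKM + 0.1) of the 3 sham rats against that of the 3 control rats for 13231 genes, with the line of equality and dashed 2-fold lines; coloured points are the 1053 genes at least 2-fold apart with no overlap. Most genes follow the line, Mt-atp6 and Rpl35a lie below it and Gpx3 and Fau above, and a row of genes at the bottom was at the lowest value of the sham table.

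The largest differences mostly concerned symbols that name no characterised gene, with the ribosomal protein genes Fau, Rpl38 and Rpl35a among them. Of the 10 largest in each direction, most were provisional symbols such as AC120071, at 9.54, 10.9 and 6.79 FPKM in control rats and 763, 1317 and 978 FPKM in sham rats, and LOC108352650, at 656, 954 and 729.8 FPKM in control and 8.28, 6.04 and 9.68 FPKM in sham rats. Provisional symbols were 2-fold apart without overlap in 20.4% of 1354 genes, against 6.54% of 11877 other genes. Fau, which encodes a ribosomal protein fused to a ubiquitin-like domain, was at 19.7, 25.1 and 39.5 FPKM in control rats and 270.4, 316 and 380.1 FPKM in sham rats. Rpl35a, of the large ribosomal subunit, was at 82.8, 167 and 106 FPKM in control and 10.4, 8.80 and 6.55 FPKM in sham rats, in the opposite direction. The 72 ribosomal protein genes that passed the filter differed by -5.15 to 5.35 on the log2 scale with a median of 0.05. Of these, 4 were higher and 8 lower in sham rats by at least 2-fold, counted whether or not the groups overlapped. By the same measure 90.1% of all 13231 genes lay within 2-fold. No excess among ribosomal protein genes is read from these small counts. Ribosomal protein genes have many near-identical copies, so these values are uncertain. Among other named genes, Cebpb, a transcription factor, was at 17.5, 19.9 and 24.8 FPKM in control rats and 3.74, 3.02 and 1.83 FPKM in sham rats, and Epb41l1, a membrane skeleton protein, at 3.13, 1.16 and 1.47 FPKM in control and 9.23, 12.5 and 13.0 FPKM in sham rats.

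A small number of genes had values in one table only. No gene was at or under 0.01 FPKM in all control rats and at 5 FPKM or more in all sham rats, while 10 were the reverse. Pex5, the receptor that brings enzymes into peroxisomes, was at 13.2, 13.7 and 15.8 FPKM in control rats and listed at 0.0001 in all sham rats. The others of the 5 highest were the provisional symbols AABR07000404, AABR07063421, AABR07000402 and AABR07048791, at 12.3 to 42.9 FPKM in control rats. The control table held 22132 entries and went down to 0, and the sham table held 32623 entries and went down to 0.0001.

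The undiseased kidneys were then set against the diseased kidneys of their own table, to see which of the nephron genes above separate from them. DEGs had an adjusted p (limma, Benjamini-Hochberg) under 0.05 and a log2 fold change of 2 or more in either direction. Of 104 nephron genes tested in the adenine model, 38 were downregulated (36.5%) and 9 upregulated, against 5.03% and 10.7% of all 15029 genes. Of 104 tested in the UUO model, 43 were downregulated (41.3%) and 3 upregulated, against 4.21% and 13.2% of all 15043 genes. The median log2 fold change of the nephron genes was -1.41 and -1.61, beside 0.30 and 0.62 over all genes. Under median-of-ratios scaling, which took the medians over all genes to 0.0014 and 0.02, 41 and 56 nephron genes were downregulated and 6 and 1 upregulated, and the upregulated part of all DEGs went from 68.0% to 56.8% with adenine and from 75.8% to 55.4% with UUO. Of the 103 genes tested in both models, 28 were downregulated in both, 10 in the adenine model alone and 15 in the UUO model alone, where the difference between models was not tested by this count, and Slc2a2 was upregulated in both.

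Kap fell from 9488 ± 2793 to 25.1 ± 41.0 FPKM with adenine, a log2 fold change of -10.90 (SE 1.57, adjusted p = 0.00124 in limma, n = 3), and from 9260.3 ± 844 to 87.2 ± 42.9 FPKM with UUO, a log2 fold change of -6.85 (SE 0.34, adjusted p = 1.7e-05). Umod fell, with log2 fold changes of -3.43 (SE 0.34, adjusted p = 0.000266) and -4.47 (SE 0.34, adjusted p = 6.2e-05) in limma, and so did Slc3a1, with -5.01 and -4.18. In both models none of the 3 diseased rats overlapped with the undiseased rats for these genes. Slc34a1, the phosphate transporter, changed by -4.31 with adenine and -3.86 with UUO, and Ggt1, the brush border enzyme of glutathione breakdown, by -3.32 and -3.27. Slc2a2 went the other way, from 6.27 ± 1.88 to 30.6 ± 14.7 FPKM and from 12.8 ± 4.10 to 65.9 ± 12.5 FPKM, upregulated by 2.17 (adjusted p = 0.00442) and 2.38 (adjusted p = 0.000179). Under median-of-ratios scaling these were 1.88 and 1.78, below the threshold of 2.

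Some lists had DEGs in both directions, and others had DEGs in 1 direction or none. Of 4 mesangium and juxtaglomerular genes, none was a DEG under adenine, and Pdgfrb was upregulated under UUO. Of the 12 early and middle proximal transporters, 3 were downregulated and 4 upregulated under adenine, namely Slc2a2, Slc5a12, Slc4a4 and Slc7a7, with a median log2 fold change of -0.23, and 6 were downregulated and 1 upregulated under UUO, with a median of -1.77. The late proximal list, which holds the enzyme Cyp7b1 beside transporters, was downregulated in 4 of 7 genes under adenine and 4 of 6 under UUO. Cyp7b1 was a DEG in neither model. Brush border and endocytosis genes were downregulated in 7 and 6 of 12, and proximal enzymes in 6 of 10 and 8 of 11. Thick ascending limb genes were downregulated in 5 and 7 of 11. Of 8 genes of the distal convoluted and connecting tubule, 2 were downregulated and 1 upregulated under adenine and 4 downregulated under UUO. Of 7 inner medulla genes, 3 were upregulated under adenine, namely Bst1, Slc6a12 and Slc6a6, and 1 downregulated, and under UUO 1 was upregulated, Akr1b1, which makes the osmolyte sorbitol. Intercalated cell genes were downregulated in 8 of 12 under adenine and 3 of 12 under UUO, and principal cell genes in 2 and 5 of 11. Under median-of-ratios scaling 3 early and middle proximal transporters and 2 inner medulla genes were upregulated under adenine and none of either list under UUO, the intercalated counts were 9 and 7 and the principal cell counts 3 and 8. Podocyte genes had no downregulated DEG in either model, with median log2 fold changes of -0.37 and 0.00. Without control rat 2, 2 podocyte genes were downregulated DEGs in the adenine model.

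Control rat 2 also weighed on other comparisons with the adenine model. Without it, 44 nephron genes were downregulated and 6 upregulated. Trpv5, the calcium channel of the connecting tubule, was upregulated by 2.79 on the log2 scale, and had a log2 fold change of 1.78, under the threshold of 2, without it. Trpv5 also lost its call when any 1 adenine rat was left out. Leukocyte genes were upregulated in 7 of 8 tested under adenine and 10 of 10 under UUO, and tubular injury genes in 5 and 6 of 7, beside the nephron genes that fell, and their part in these counts was not tested.

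**Figure D5:**
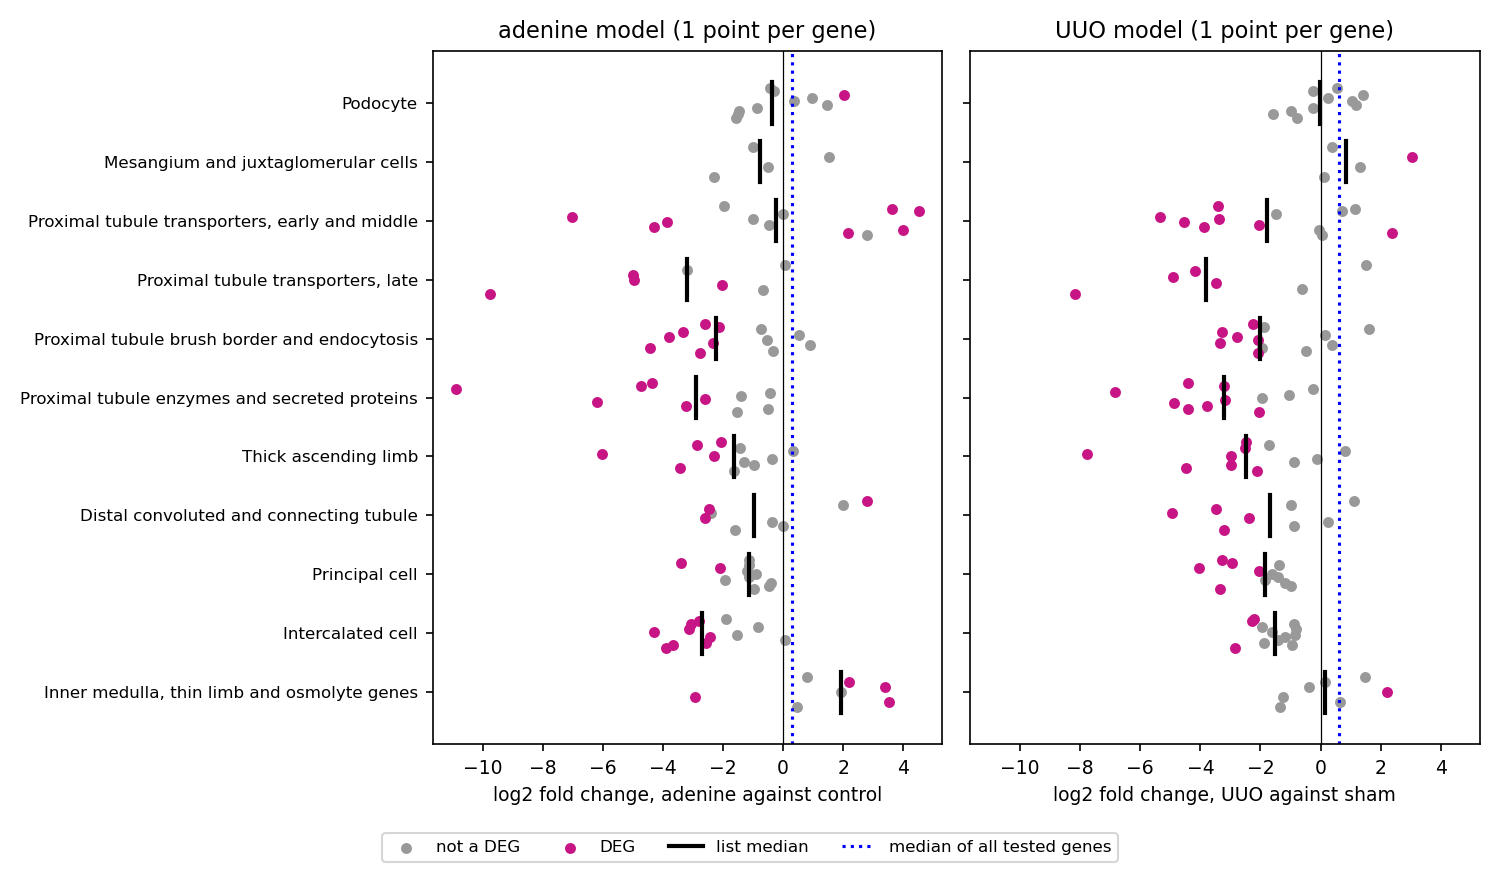
Log2 fold change of each nephron gene in the adenine model against control (left) and the UUO model against sham (right), by list; each point is 1 gene, coloured where it is a DEG, the black bar is the list median and the dotted line the median of all tested genes (0.30 and 0.62). Most lists lie to the left of the dotted line, podocyte genes scatter around 0, and inner medulla genes lie to the right in the adenine model.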

How the data were processed

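RNA of renal tissue from 12 rats was sequenced by the authors after poly(A) selection, as strand-specific paired reads. The authors deposited FPKM per gene in 2 tables, one for control and adenine and one for sham and UUO, and by the paper's methods these followed trimming of poor or unread bases, mapping and a merged transcript assembly. Per the submitters' processing notes, tools included cutadapt 1.9, HISAT2 2.0.4 and StringTie 1.3.4d, with DESeq2 and edgeR named for differential expression. The genome build and annotation are not given in the sources used here, so genes are named by symbol. Read numbers are unknown and counting error was therefore not estimated. Precision rests on the spread between 3 rats. FPKM is a share of a library, so a change in abundant transcripts moves all others.

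Groups were taken from the labels. Symbols with 1 entry in each table were used for lists. Values were analysed as log2(FPKM + 0.1), which understates changes of low genes, for genes with at least 0.5 FPKM in at least 3 of 6 samples. Fold changes within a table used limma 3.58.1 (lmFit, eBayes with a trend) in R 4.3.3, on all entries that passed, with Benjamini-Hochberg adjustment over all of them. The DEG thresholds were an adjusted p of 0.05 and a log2 fold change of 2 in either direction. Control and sham were compared by description alone, since the tables were normalized separately. Other steps used Python 3.11.15, numpy 2.4.6, pandas 2.3.3, scipy 1.17.1 and matplotlib 3.10.9. On simulated tables with 200 genes changed by 3 on the log2 scale, limma called 159 of 200 (79.5%) of 15029 genes like the adenine table and 168 (84%) of 15043 like the UUO table, and it also called 2 and 1 unchanged genes.

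Named genes were the 20 highest genes by the mean of both group means and members of the lists. Listed members were the highest, those without overlap between control and sham, and those called in neither model or against their list. Also named were the 10 genes with the largest SD in each group among genes of at least 5 FPKM. The 10 largest differences between control and sham in each direction were taken among genes of at least 1 FPKM in all 6 rats. The last were the 5 highest genes at or under 0.01 FPKM in 1 group and at least 5 FPKM in the other. Genes named for a difference between single rats outside these rules were chosen after their values were seen. A few genes that meet these rules are not reported here. The members and lists were chosen with earlier results of these data known. Of 26 lists, the interferon-stimulated genes stood at summed levels of 73.8 to 140.1 FPKM, heat shock genes at 628 to 1254 FPKM, immediate early genes at 118 to 252 FPKM and red blood cell genes at 232 to 692 FPKM in the 6 undiseased rats. Each step was also run with a pseudocount of 1 or 0.01, without the filter, with the minimum raised to 1 FPKM, and with median-of-ratios scaling, FPKM rescaled to the same sum, a block for the replicate number, and leaving out each sample in turn.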

Additional observations from a re-analysis of the deposited data

Results flagged for a closer look

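In 5 nephron genes named for the models, the log2 fold change against the undiseased rats differed between the adenine and the UUO model by a test of the difference itself, which took the difference of the fold changes over the root of the summed squared standard errors as t, with Benjamini-Hochberg adjustment over 13486 genes, and called 389 genes with an absolute difference of at least 2. Of 21 named genes tested, 5 were called. These 5 had been named because the same fits called them upregulated in the adenine model. Their share of the 21 therefore cannot be set against the share over all genes. Slc5a12, the lactate transporter of the proximal tubule, differed by 4.04 (SE 1.41, adjusted p = 0.0485 beside limma fits of 3 rats per group), with log2 fold changes of 4.0 in the adenine and -0.040 in the UUO model. Slc4a4, the bicarbonate transporter, differed by 3.81 (SE 1.05, adjusted p = 0.0179 from the same fits), with 4.53 and 0.71. Bst1, an ectoenzyme named in the inner medulla list, differed by 2.88, with 3.52 and 0.64. The betaine transporter Slc6a12 differed by 3.78, with 3.39 and -0.39, and the taurine transporter Slc6a6 by 2.04, with 2.19 and 0.14. The undiseased levels beside these values were unequal: Slc5a12 was at 0.733 ± 0.950 FPKM in control and 6.97 ± 5.39 FPKM in sham rats, Slc4a4 at 0.912 ± 1.05 and 5.97 ± 2.76 FPKM, and Slc6a6 at 5.64 ± 1.66 and 16.5 ± 10.8 FPKM (SD, n = 3). Their part in the differences between the models was not tested.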

How the results depend on the processing

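Of 630 values computed under alternatives for 51 results, 525 for single genes kept their direction and side of the threshold, 11 no longer passed it, 2 newly passed it and 8 changed sign, and of the summary values 69 stayed within tolerance and 15 moved. A pseudocount of 1 gave 1320 DEGs in the adenine and 1465 in the UUO model in place of 2360 and 2613, and 515 genes 2-fold apart between control and sham in place of 1053, and a minimum of 1 FPKM in all 6 rats gave 551. These alternatives damp or remove low genes. The median SD between rats was 0.179 in control and 0.157 in sham rats with a pseudocount of 1, and 0.191 and 0.166 over genes of at least 1 FPKM in all rats. The 20 highest genes held 37.3% of FPKM in control rats when only symbols listed once in each table were summed. Leaving out 1 rat at a time gave 2264 to 2444 adenine DEGs, 2534 to 2690 UUO DEGs, 44 to 50 and 44 to 47 nephron DEGs, 886 to 1414 genes 2-fold apart between control and sham, median SDs of 0.157 to 0.198 in control and 0.147 to 0.162 in sham rats, and shares of the 20 highest genes of 34.4% to 35.9% and 35% to 37.2%. Fold changes near 0 changed sign in the UUO model, and the cause was not tested: Slc5a12 became 0.18 with FPKM rescaled to the same sum and ranged from -1.24 to 0.57 (0.57 without sham rat 1, 0.55 without sham rat 3, 0.37 without UUO rat 1), Slc6a12 ranged from -1.33 to 0.32, the latter without sham rat 1, and Slc6a6 became -0.45 under median-of-ratios scaling, and ranged from -0.17 to 0.64 (-0.036 without sham rat 2, -0.17 without sham rat 3). The replicate numbers were shared by different rats. In the control and adenine table, correlations of deviations were -0.123 to -0.049 between same-numbered rats and -0.044 to 0.113 between the others. In the sham and UUO table they were 0.050 to 0.105 and -0.078 to 0.016, so there every same-numbered pair lay above the others. Whether the numbers pair the samples was not tested. With a replicate block 2352 and 2609 DEGs and 46 and 45 nephron DEGs were found. With no read counts, depth cannot limit these statements by a known amount.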
